A study of Homo sapiens with 2 samples.

Results

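The microRNAs (miRs) miR-143, miR-145, miR-199a, miR-199b and miR-214 are best known from cells of mesenchymal origin. Their names were taken from the deposited table by number, with the prefix, the arm ending, the number of the gene copy and the asterisk dropped. This gave 8 of the 934 names in the table, of which 5 belong to miR-143 and miR-145 and 3 to miR-199a, miR-199b and miR-214. Small RNA was sequenced from K562 cells, which come from a human chronic myelogenous leukemia and were grown without drug, and from K562/ADM, a line derived from them by stepwise exposure to adriamycin (ADM), an anthracycline drug, and then kept in 1000 ng/mL of it. There was 1 library for each line. The reads assigned to the 934 names summed to 7677738 in K562 and 6895193 in K562/ADM, which are a part of each library and not its whole depth. The effects of the drug in the medium and of lasting resistance cannot be told apart in this design, and whether K562/ADM grew from a single cell was not given in the sources used here. All differences below are between these libraries, with no replicate check.

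MiR-143 and miR-145 are cut from neighbouring hairpins, are abundant in smooth muscle and fibroblasts, and act in smooth muscle differentiation. MiR-199a, miR-199b and miR-214 come from hairpins that lie on the strand opposite to dynamin genes, and the hairpins of miR-199a-2 and miR-214 share the non-coding transcript DNM3OS, which is active in developing mesenchyme. A hairpin yields a strand from each of its arms, 5p and 3p. In the naming used in the table the asterisk marks the strand that is usually scarcer, so that miR-143 is now called miR-143-3p, miR-143* miR-143-5p, miR-145 miR-145-5p, miR-145* miR-145-3p and miR-214 miR-214-3p. What the name mir-145*, spelled with a small r, stands for was not given in the sources used here.

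Of the 7 listed names with a current name, 6 have a mature sequence in the RefSeq table of GRCh38.p14. They are shown with the seed, bases 2 to 8 from the 5′ end, in capitals, because the seed decides which messages a miR can pair with and no 2 of these 6 strands have the same one. The strand from the 3p arm of miR-199a is added because it is the same in all 3 miR-199 hairpins.
miR-143-3p: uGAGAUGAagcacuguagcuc
miR-143-5p: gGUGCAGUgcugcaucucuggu
miR-145-5p: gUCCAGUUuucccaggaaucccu
miR-145-3p: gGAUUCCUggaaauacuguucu
miR-199a-5p: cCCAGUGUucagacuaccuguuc
miR-214-3p: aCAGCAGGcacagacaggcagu
miR-199a-3p and miR-199b-3p: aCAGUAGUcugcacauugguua

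MiR-199a-3p and miR-199b-3p differ at 0 positions, and neither is among the 934 names, so that the group is seen here through its 5p strands and through miR-214. The other strand of miR-214 is not among the names either. How reads that match several hairpins were assigned was not given in the sources used here, and this bears on miR-199a-5p, which comes from 2 hairpins.

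The hairpins were placed on GRCh37 by their sequences. MIR143 lies on the plus strand of chromosome 5 from 148808481 to 148808586, inside an exon of all 3 annotated transcripts of the lncRNA gene CARMN that reach it. MIR145 lies on the same strand from 148810209 to 148810296, in introns of CARMN, with 1622 bases between the hairpins. MIR214 (172107938 to 172108047) and MIR199A2 (172113675 to 172113784) lie on the minus strand of chromosome 1, with 5627 bases between them. Both touch exons of DNM3OS and lie in introns of DNM3 on the other strand. MIR199B is on chromosome 9, minus strand, 131007000 to 131007109, opposite introns of DNM1. MIR199A1 is on chromosome 19, minus strand, 10928102 to 10928172, opposite introns of DNM2.

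MiR-143 and miR-145 were higher in K562/ADM than in K562, whereas the miR-199 and miR-214 names had few reads in either line. MiR-145 had the most reads of the 8 names, with 3045 in K562 and 6211 in K562/ADM. MiR-143 had 204 and 1279 reads. MiR-199b-5p had 58 and 37 reads, the only name of its group with more than 3 reads in a library. In RNA from whole cultures, a change in the share of cells that hold a miR and a change in its level per cell cannot be told apart.

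Together the 8 names held 0.0432% of the reads of all listed names in K562 (95% interval 0.0417 to 0.0447, exact Clopper-Pearson) and 0.109% in K562/ADM (0.107 to 0.112). These intervals, and all others here, cover counting error only. Per 1000000 listed reads, miR-145 stood at 397 in K562 and 901 in K562/ADM, and miR-143 at 26.6 and 185. By number of reads miR-145 was the 81st name of K562 and the 54th of K562/ADM, and miR-143 the 239th and the 97th. Both therefore stood nearer the top of the K562/ADM library.

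**Figure D1:**
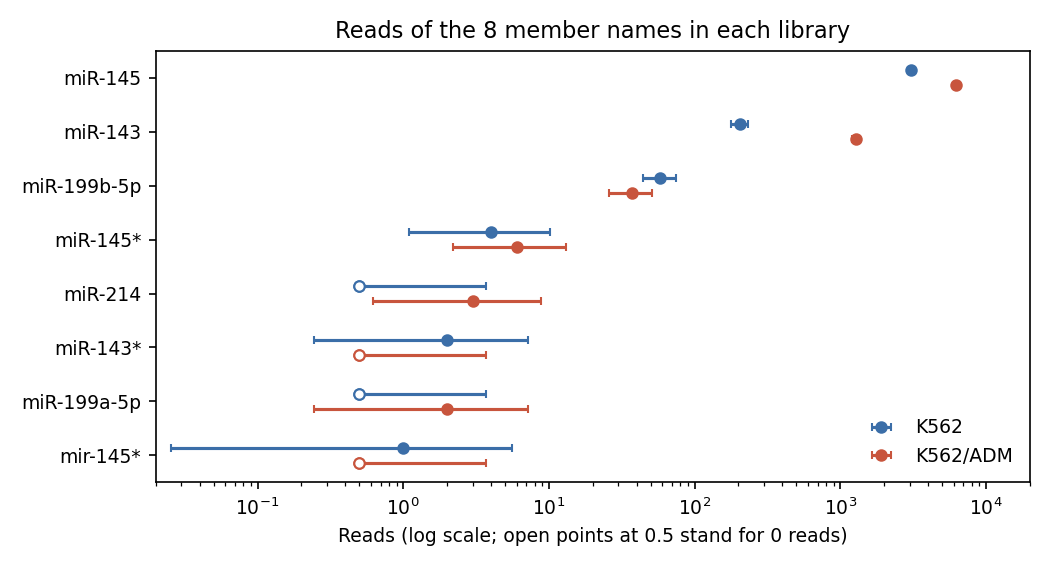
Reads (x axis, log scale) of each of the 8 names (y axis) in K562 (blue) and K562/ADM (red), with exact 95% Poisson intervals as bars and open points for 0 reads. MiR-145 (3045 and 6211 reads) and miR-143 (204 and 1279) are separated between the libraries beyond their bars, and the bars of the other 6 names overlap.

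For the ratio of K562/ADM to K562, the reads were scaled by size factors, as in the deposited table, and a call of higher or lower was made where the ratio reached 2-fold and its exact 95% interval left out 1. MiR-143 was 7.68-fold higher (95% interval 6.62 to 8.94) and miR-145 2.50-fold higher (2.39 to 2.61). These were the 2 of 8 names called higher, and 0 were called lower. Over all 934 names, 11.1% were called higher and 15.6% lower. Among the 169 names with 1000 or more reads over both libraries, 11.2% were called higher. In the order of the ratios of these 169 names, miR-143 was the 7th and miR-145 the 15th. Under upper-quartile scaling, which raised each log2 ratio by 0.74, 223 of all names were called higher and 95 lower in place of 104 and 146, and the calls on miR-143 and miR-145 stood.

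MiR-199b-5p had a ratio of 0.781 (0.503 to 1.20), an interval that holds 1 and runs from close to a 2-fold fall to a small rise. Upper-quartile scaling put this ratio on the other side of 1, at 1.31 (0.842 to 2.01). MiR-214, which is known for roles in skeletal and muscle development, had 0 reads in K562 against 3 in K562/ADM. MiR-199a-5p had 0 and 2 reads. A count of 0 allows up to 3 reads, so a difference in these miRs was not detectable at this depth and no fold is given. Over the 4 of the 8 names with 10 or more reads over both libraries, the median log2 ratio was 1.10, against -0.08 over the 604 names of the table with as many reads. The median of the 4 lies between miR-145 (1.32) and miR-145* (0.88), which come from the same hairpin, and miR-145* had 10 reads in all. The other 4 of the 8 names had 1 to 3 reads in all.

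**Figure D2:**
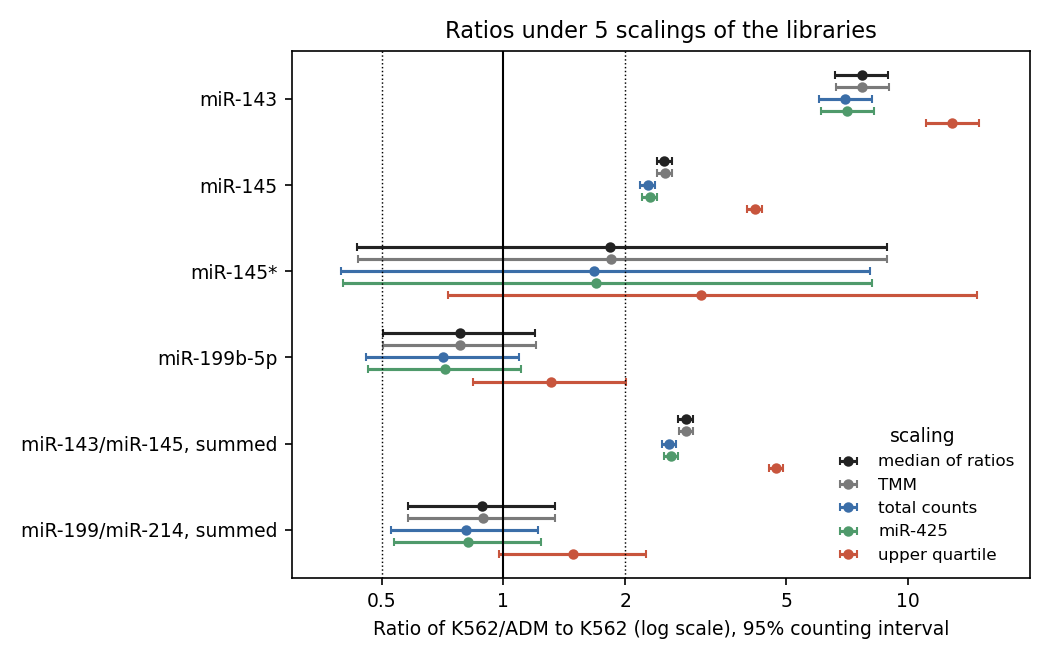
Ratio of K562/ADM to K562 (x axis, log scale) of the 4 names with at least 10 reads and of the 2 groups summed (y axis), each under 5 scalings of the libraries (colours), with 95% counting intervals as bars, a solid line at equality and dotted lines at 2-fold. MiR-143, miR-145 and their sum lie to the right of the 2-fold line under each scaling, from 2.27 for miR-145 with total counts to 12.9 for miR-143 with upper quartile, and the bars of miR-199b-5p and of the miR-199/miR-214 sum hold 1 under each.

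The next comparison asks whether the pair on chromosome 5 and the miR-199/miR-214 group differed in how they changed. The 5 names of miR-143 and miR-145 summed to 3256 reads in K562 against 7496 in K562/ADM, which gave a scaled ratio of 2.82 (2.71 to 2.94). The 3 names of miR-199a, miR-199b and miR-214 summed to 58 and 42 reads, a ratio of 0.887 (0.582 to 1.34). The former ratio was 3.18 times the latter (2.10 to 4.86, exact conditional interval of the odds ratio), a value in which the size factors cancel. Of the reads of all 8 names, miR-143 and miR-145 held 98.2% in K562 (97.7 to 98.7) and 99.4% in K562/ADM (99.2 to 99.6). The miR-199/miR-214 side of the contrast rests on miR-199b-5p, which gave 58 of its 58 reads in K562 and 37 of 42 in K562/ADM. Reads of the miR-199 3p strand, which is not listed, are missing from this side and from these shares. Against miR-199b-5p alone, the ratio of miR-145 was 3.20 times as large (2.08 to 4.98) and that of miR-143 9.83 times (6.20 to 15.7). Of the reads of miR-199a-5p and miR-199b-5p together, miR-199a-5p held 0 of 58 or 0% in K562 (0 to 6.16). In K562/ADM it held 2 of 39 or 5.13% (0.627 to 17.3).

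Within the pair, miR-143 was raised more than miR-145. K562 had 14.9 reads of miR-145 for each read of miR-143, and K562/ADM had 4.86. MiR-143 made up 6.28% of the reads of both (5.47 to 7.17) in K562 and 17.1% (16.2 to 17.9) in K562/ADM. The ratio of miR-143 was 3.07 times that of miR-145 (2.63 to 3.60), a log2 difference of 1.62 that does not depend on scaling. This comparison was added after the values had been seen.

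To place this difference, pairs of miRs were taken whose hairpins lie within 10 kb on the same strand. Each miR had 100 or more reads over both libraries and some in each. Names with an asterisk, names with several hairpins and hairpins not placed once were left out. Each hairpin stood by its most abundant name, so not all neighbouring pairs are covered. Of the 59 other pairs in which each name also had 10 or more reads in each library, a minimum added after the values had been seen, 4 differed in their log2 ratios by as much as miR-143 and miR-145, and the median difference was 0.62. They were miR-299-3p with miR-758 (1.89), miR-380 with miR-758 (1.88) and miR-665 with miR-127-3p (1.71) on chromosome 14, and miR-660 with miR-502-3p (1.69) on the X chromosome. Without that minimum 20 of 125 pairs differed by as much, of which 16 held a name with under 10 reads in a library, where counting error is large. The pairs share miRs with each other, and the counts are a description.

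**Figure D3:**
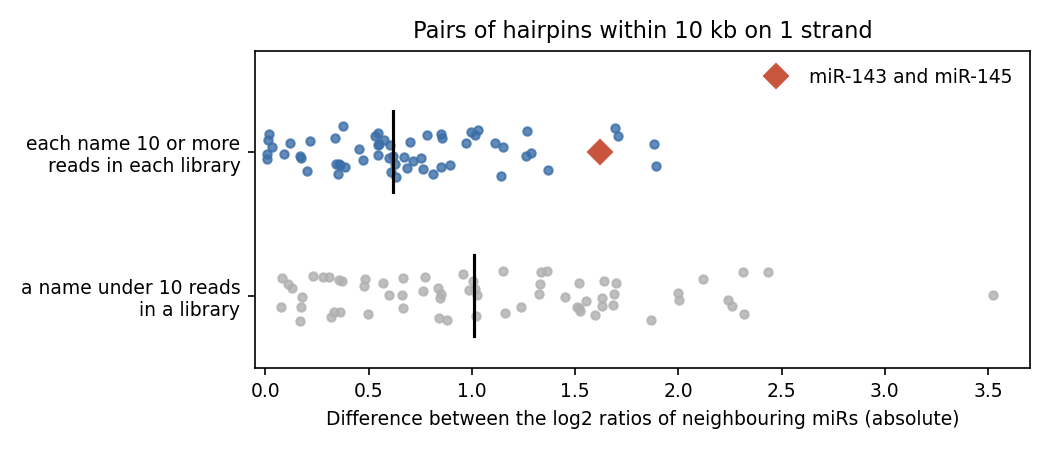
Absolute difference between the log2 ratios of 2 miRs with hairpins within 10 kb on the same strand (x axis), for pairs with 10 or more reads of each name in each library (blue) and for pairs with under 10 reads of a name in a library (grey), with a black bar at each median (0.62 and 1.01). Points are pairs, spread vertically for sight, and the red diamond is miR-143 with miR-145 at 1.62, with 4 blue points to its right.

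The arms of both hairpins were used very unequally in both lines. MiR-145* had 4 reads in K562 against 6 in K562/ADM, and mir-145* had 1 and 0. Both together held 0.164% of the reads of their hairpin in K562 (0.0532 to 0.382) and 0.0965% in K562/ADM (0.0354 to 0.210). The asterisk reads of miR-145 changed by 0.588 times as much as the others, with an interval of 0.149 to 2.44 that holds 1. MiR-145* by itself had a ratio of 1.84 (0.436 to 8.85) and was not called.

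MiR-143* had 2 reads in K562 against 0 in K562/ADM. It therefore held 0.971% of the reads of its hairpin in K562 (0.118 to 3.46) and 0% of 1279 in K562/ADM (0 to 0.288). The asterisk reads changed by 0 times as much as the others, with an interval of 0 to 0.855 that leaves out 1, unlike that of miR-145, but this rests on 2 reads in K562. For comparison, 86 other miRs are listed with and without an asterisk and have at least 100 reads of the name without it. Their median asterisk share was 2.44% in K562 (quartiles 0.625 and 13.1%) and 1.60% in K562/ADM (0.280 and 10.0%). Asterisk names spelled mir were not counted in these shares. Without mir-145*, the asterisk share of miR-145 in K562 was 0.131%. For miR-199a, miR-199b and miR-214 only 1 arm is listed, so the arms could not be compared.

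On chromosome 5, the nearest listed miRs to the pair did not move alike. Names with several hairpins were left out of the comparisons by position. MIR584 starts 367 kb before MIR143, on the other strand, and miR-584 had 7 reads in K562 against 621 in K562/ADM, or 109-fold higher (52.4 to 271). MIR378A starts 304 kb after MIR143, and its miR-378, the most abundant miR of both libraries, had a ratio of 1.15, while miR-378*, with 121 and 43 reads, was called lower at 0.435 (0.300 to 0.621). Over the whole of chromosome 5, 4 of 23 other placed names were called higher and 2 lower, against 11.1% and 15.6% of all 934 names. The median log2 ratio of the 14 with at least 10 reads was 0.08. This comparison was added after the values had been seen.

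Near the other hairpins the listed miRs had very few reads, with names of several hairpins left out here too. MiR-3120, which is encoded opposite MIR214, had 1 read in each library. MiR-3154 and mir-3154*, from a hairpin beside MIR199B, each had 2 reads in K562 against 0 in K562/ADM.

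**Figure D4:**
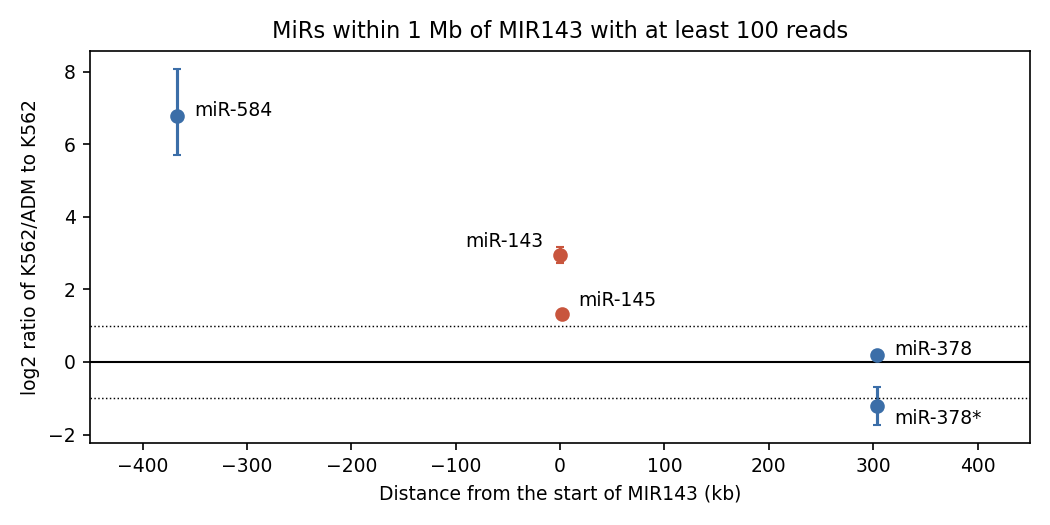
Distance of the hairpin from the start of MIR143 in kb (x axis) and log2 of the K562/ADM-to-K562 ratio on the y axis for miRs within 1 Mb with at least 100 reads, with 95% counting intervals as bars, a solid line at equality and dotted lines at 2-fold. MiR-584 stands at 6.76, miR-143 and miR-145 (red) at 2.94 and 1.32, miR-378 at 0.21 and miR-378* at -1.20. Names with several hairpins are left out.

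Other miRs that are abundant in mesenchymal cells were examined beside the pair. Of 16 such miRs, 14 were listed under 25 names, of which 5 were called higher and 1 lower. Over all 934 names the shares were 11.1% higher and 15.6% lower. The calls on this list and on the lists below used the size factors and were not repeated under the other scalings. Total counts shifted each log2 ratio by -0.14, which would take miR-10a, at a log2 ratio of 1.13, just under 2-fold. MiR-10a, from the HOXB cluster, had 10324 reads in K562 against 18492 in K562/ADM and was 2.19-fold higher (2.14 to 2.25). MiR-195 was 3.38-fold higher (2.75 to 4.18), miR-497, its neighbour on chromosome 17, 3.81-fold (1.75 to 9.18), miR-152 2.31-fold (1.82 to 2.95) and miR-10b, with 3 and 10 reads, 4.08-fold (1.05 to 23.1). MiR-193b*, with 25 and 9 reads, was lower, at 0.441 (0.181 to 0.976). MiR-193b, with 548 and 227 reads, had a ratio of 0.507 (0.433 to 0.593), just short of a call. MiR-193b and the called names other than miR-10a were named after their values had been seen.

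The other 3 of the most abundant names on this list were not called, with ratios of 0.865 for miR-140-3p, 1.25 for miR-27b and 1.85 for miR-140-5p. The median log2 ratio of the 19 names on it with at least 10 reads was 0.54, with ratios from 0.441 to 4.08, against -0.08 for all names with as many reads. MiR-31 and miR-100, which are prominent in fibroblasts, were not listed. The part of other cell types in the higher miR-143 and miR-145 was not tested. Muscle miRs were scarce, with 29 reads in K562 and 51 in K562/ADM over 5 names. Of these miR-1 was called higher with 10 and 22 reads, a ratio of 2.69 (1.22 to 6.37), while miR-133a had 0 reads in K562 against 1 in K562/ADM.

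Blood cell miRs were abundant in both libraries. Of their 11 names, 0 were called in either direction, against 11.1% higher and 15.6% lower over all 934 names. The ratios of the 9 with at least 10 reads ran from 0.699 to 1.77. MiR-451, which rises in erythroid cells, had 30470 and 19738 reads, and miR-144*, from the hairpin next to it, 44262 and 36808. MiR-142-3p had 351692 and 507475 reads. Upper-quartile scaling, which raised each log2 ratio by 0.74, would take miR-142-3p (log2 ratio 0.82) and miR-144 (0.45) past 2-fold. MiR-150 and miR-155 were not listed. MiR-126, known from endothelium and also from blood progenitors, had 38960 and 18177 reads, a ratio of 0.571 (0.561 to 0.582) that does not reach 2-fold. Of the 9 names of the epithelial miR-200 family and miR-205, miR-200a was called higher with 2 and 9 reads, a ratio of 5.51 (1.14 to 52.4), and the most abundant, miR-141, had a ratio of 1.02 (0.923 to 1.12).

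**Figure D5:**
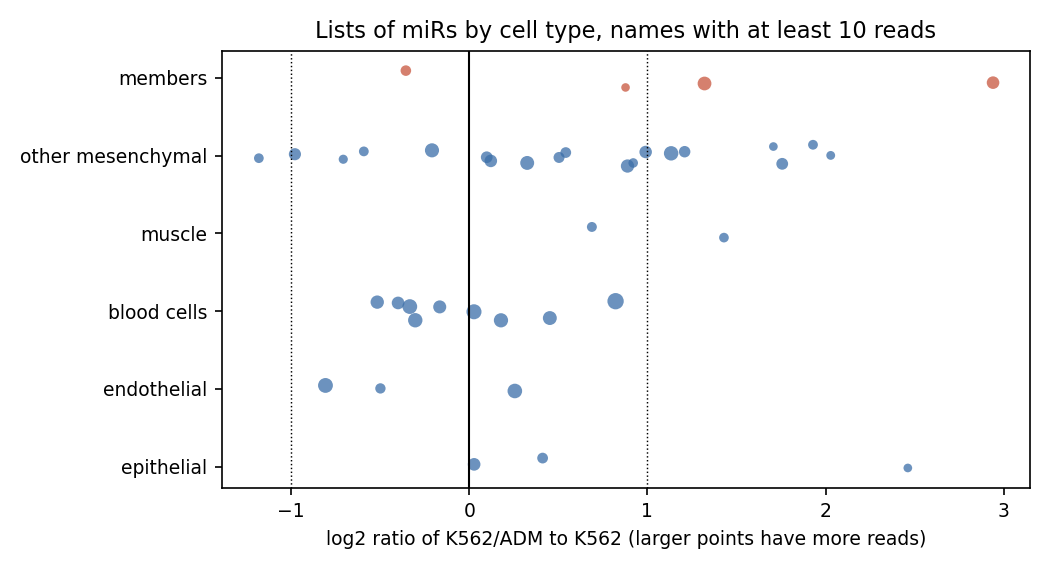
Log2 ratio of K562/ADM to K562 (x axis) of the names with at least 10 reads in each list of miRs (y axis), with point size rising with reads, a solid line at equality and dotted lines at 2-fold. Among the members miR-143 at 2.94 lies to the right of each other point, and the 9 blood cell names all lie between the dotted lines. The libraries are scaled by size factors.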

How the data were processed

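Total RNA of K562 and K562/ADM cells was enriched for small RNA and sequenced as 36-base reads on an Illumina Genome Analyzer IIx. The authors grouped reads into unique sequences, left out those seen once, removed adapters and mapped with Bowtie in miRanalyzer against miRBase 16. The submitters' processing notes also name CASAVA 1.7.0, DESeq and hg18. The signal values deposited are reads divided by the DESeq size factor of the library, and 100% of the values in each column came out as whole reads within 0.001 when divided by the smallest value above 0. On this scale 100 names of K562 and 124 of K562/ADM stood at 1 read, at odds with the stated omission of sequences seen once. The authors' fold, log2 and p-value columns compare the libraries and were not used.

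The median of ratios over all names gave the size factors again. Ratios have exact 95% binomial intervals, contrasts between names exact conditional intervals, and single counts exact Poisson intervals. For a count of 0 the upper end of the exact interval is given. With 1 library per line no model leaves residual degrees of freedom, so no p-value was computed. The procedure was tested on simulated Poisson counts without variation between libraries, so that test covers counting error only. Other scalings used total counts, TMM and upper quartile (edgeR 4.0.16, R 4.3.3) and miR-425. The other alternatives were a minimum of 10 reads, calls from the fold without the interval or from an interval wholly past 2-fold, scaled values with 1 added, names without an asterisk, the most abundant name of each miR, and each miR left out.

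Mature sequences came from RefSeq (GRCh38.p14). Of its 1562 hairpins 1508 were placed once on GRCh37 by exact match, and genes came from GENCODE on GRCh37. The names given are all 8 members, miRs with the same seed, the 2 nearest names to each member with at least 10 reads, and up to 4 examples of each cell type list beyond the called names and those not listed. The members, lists and comparisons were chosen with earlier results of these data known. Scripts ran on Python 3.11.15 with scipy 1.17.1, numpy 2.4.6, pandas 2.3.3 and matplotlib 3.10.9.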

Additional observations from a re-analysis of the deposited data

How the results depend on the processing

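The counts of names called, 2 higher and 0 lower, were the same under each scaling, with at least 10 reads required, with the whole interval past 2-fold and with 1 added to the scaled values. By fold alone 4 names were higher and 2 lower, the added names having 1 to 3 reads. The summed ratio of miR-143 and miR-145 was 2.56 with total counts, 2.59 with miR-425 and 4.72 with the upper quartile, and that of the miR-199/miR-214 group was 1.48 with the upper quartile. The contrast of the groups was 8.57 without miR-145, which holds most of the reads. It had no value without miR-199b, since no K562 reads of the group are left. It ran from 2.81 to 3.42 with each of the others left out. Counting a sequence shared by miR-199a-3p and miR-199b-3p once was not possible, as neither is listed. No paired analysis was possible because each line has 1 library. Depth limits miR-214, miR-199a-5p and the asterisk strands, with at most 6 reads in a library.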

Other observations

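Few listed miRs share a seed with the members. MiR-3619, whose 5p strand has the seed of miR-214-3p, had 0 reads in K562 against 1 in K562/ADM, and miR-3129, whose 5p strand has that of miR-199a-3p, also had 0 and 1. Which strand these names stand for is not given in the table. MiR-761, miR-4770 and miR-6088, which share seeds with miR-214-3p or miR-143-3p, were not among the names.

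The names nearest to the members were found by the distance between their log2(scaled reads + 1) in the 2 libraries. Nearest to miR-143 were miR-135b*, with 243 and 1529 reads and a ratio of 7.71 (95% interval 6.73 to 8.86), and miR-1290, with 243 and 1001 reads and a ratio of 5.04 (4.38 to 5.83). Nearest to miR-145 were miR-128, with a ratio of 1.48 (1.42 to 1.54), and miR-15a, with 1.65 (1.58 to 1.73). Nearest to miR-199b-5p were miR-1294, with 54 and 35 reads, and mir-24-2*, with 63 and 39. MiR-491-3p and mir-548x* had the same 4 and 6 reads as miR-145*. With 2 libraries this likeness is a description of levels.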
